A study of Mus musculus with 71 samples.

Results

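Among the γδ intraepithelial lymphocytes (γδ IELs) of the mouse small intestine, 97 cells were set apart by transcripts that interferon induces. They were chosen by a rule on unique molecular identifiers (UMIs, each standing for a captured transcript). A cell had to hold at least 500 detected genes, at least 5 UMIs of the T cell receptor subunits Cd3d, Cd3e, and Cd3g together, and at least 4 UMIs of Ifit1, Ifit3, Rsad2, and Cmpk2 together. The 6 single-cell libraries held 23994 barcodes, of which 23644 passed the first 2 conditions, and the 97 interferon-response cells were 0.410% of these. The other 23547 cells served as the comparison. γδ IELs had been sorted as CD45+ TCRβ- TCRγδ+ cells from the duodenum, jejunum, and ileum of Btnl2-KO mice, which carry a LacZ knock-in null allele of Btnl2 on the C57BL/6 background, and of WT littermates. The mice were female and cohoused, and were 8 to 10 weeks old per the labels, whereas the study's methods give another age. Each segment and genotype was represented by 1 single-cell library of pooled mice, and the 3 segment libraries of a genotype came from the same pool, so the libraries are not 6 independent animals. In addition, 22 bulk RNA-sequencing libraries of γδ IELs, each from 2 pooled mice, were used. The duodenum and the ileum each had 3 Btnl2-KO and 4 WT libraries, and the jejunum had 4 of either genotype. Their mice are labelled 10 weeks old, and part of the same sorted cells had gone into the single-cell pools.

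Interferons are secreted proteins that alert cells to infection. Type I and type III interferons signal through paired receptors and the kinases Jak1 and Tyk2 to a complex of transcription factors that includes Stat2 and Irf9, which enters the nucleus and binds the interferon-stimulated response element in the promoters of its target genes. The products of these targets sense foreign nucleic acids, block viral replication, present antigen on class I molecules, and in part shut the signal off again. γδ IELs patrol the intestinal epithelium, carry CD8α and the integrin CD103, and are loaded with granzymes at steady state.

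The response element can be read in the promoters of 3 of the 4 genes that defined the cells. With RefSeq transcription starts on GRCm38.p6, windows from 250 bases before to 50 bases after each start were searched on both strands for GAAA, any 2 bases, and GAAA again, the core repeat of the element. The stretches that hold a match are shown for Isg15, which the rule did not use, and for 3 of the 4 genes that it did use, with every base of a match in capitals (TTTC is GAAA on the other strand). They lie at chr4:156200850-156200921 on the minus strand (Isg15), chr19:34640760-34640838 on the plus strand (Ifit1), chr19:34583348-34583441 on the plus strand (Ifit3), and chr12:26456538-26456597 on the minus strand (Rsad2), and each is printed 5′ to 3′ in the direction of transcription.
Isg15: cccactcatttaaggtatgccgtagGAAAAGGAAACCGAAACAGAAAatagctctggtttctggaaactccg
Ifit1: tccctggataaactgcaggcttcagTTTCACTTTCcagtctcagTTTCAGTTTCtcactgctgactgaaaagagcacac
Ifit3: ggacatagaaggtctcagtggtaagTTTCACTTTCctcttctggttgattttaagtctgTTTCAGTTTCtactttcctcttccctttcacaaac
Rsad2: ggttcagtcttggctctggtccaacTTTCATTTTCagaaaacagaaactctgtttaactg

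Isg15 held 3 overlapping matches, which end 57 bases before its start. Ifit1 and Ifit3 held 2 matches each, and Rsad2 held 1. The window of Cmpk2 held none. Usp18, Irf7, and Mx1 were also looked up and gave no match. Over all genes with a window, 3.99% (1079 of 27025) held a match. The share was 3.81% among the genes tested in the single cells (352 of 9233) and 33.3% among those called higher in the interferon-response cells (54 of 162), as described below. Among the genes called lower it was 3.64% (2 of 55). A match describes letters in a window and is not a measured binding site.

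The cells were found in every library. In the duodenum, they made up 0.582% of the WT cells (23 of 3953, exact 95% confidence interval 0.369 to 0.872%) and 0.305% of the Btnl2-KO cells (12 of 3931, 0.158 to 0.533%). In the jejunum, the order was the other way round, with 0.362% in WT (13 of 3592, 0.193 to 0.618%) and 0.604% in Btnl2-KO (23 of 3807, 0.383 to 0.905%). In the ileum, the shares were 0.459% in WT (17 of 3703, 0.268 to 0.734%) and 0.193% in Btnl2-KO (9 of 4658, 0.0884 to 0.366%). The intervals are Clopper-Pearson intervals and cover counting error only, and with 1 library per segment and genotype no test between genotypes was made. The intervals of WT and Btnl2-KO overlapped in each segment, and the direction was not the same in the 3 segments. Because a cell with more UMIs reaches 4 more easily, every cell was also thinned to 3300 UMIs, which left out 2275 shallower cells, 5 of them interferon-response cells. After thinning, 51 cells still held at least 4 UMIs of the 4 genes, and the shares ran from 0.0684% in the Btnl2-KO ileum to 0.412% in the WT duodenum. The Btnl2-KO library stayed below WT in the duodenum (0.149%) and ileum (WT 0.237%) and above WT in the jejunum (0.381 against 0.219%).

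**Figure D1:**
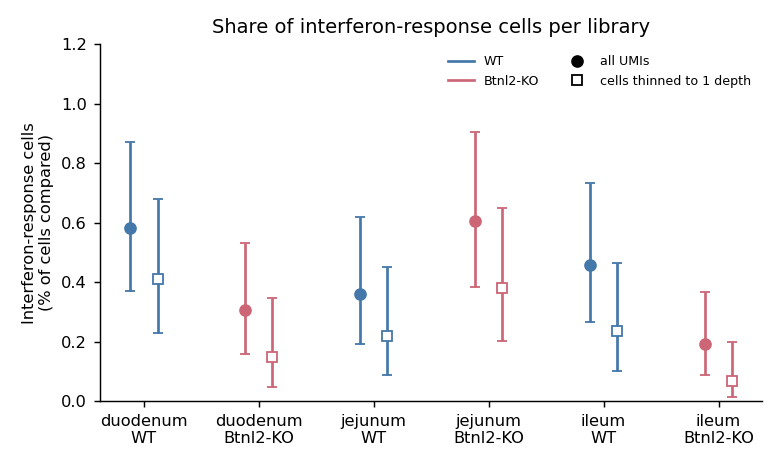
Share of interferon-response cells (y axis, percent of the cells compared) in the 6 single-cell libraries (x axis), with WT in blue and Btnl2-KO in red. Filled circles use all UMIs and open squares cells thinned to 3300 UMIs, and bars are exact 95% intervals for counting error, which overlap between WT and Btnl2-KO in each segment.

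The choice rested on few molecules per cell. Of the 23644 cells compared, 22621 (95.7%) held no UMI of the 4 genes and 926 held 1 to 3. The interferon-response cells held 4 to 44, with a median of 6. Just inside the threshold were 20 cells with 4 UMIs, and just outside it 43 cells with 3. All 4 genes were detected in 28 cells, 3 genes in 36, 2 in 27, and 1 in 6. As a description of what the rule selected, the 97 cells held 40.6% of all UMIs of Ifit1 and 65.9% of those of Ifit3, which encode RNA-binding inhibitors of translation. They also held 41.7% of the UMIs of Rsad2 (viperin, an antiviral enzyme) and 40.5% of those of Cmpk2, a mitochondrial nucleotide kinase that lies next to it.

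Several interferon-induced genes that the rule did not use stood higher in cells with more of these UMIs, on either side of the threshold. This is a description of the bins, and none of it was tested. Isg15, a ubiquitin-like protein that is attached to viral and host proteins, stood at 80.4 CPM (the gene's share of all UMIs of the summed cells, scaled to a fixed total) in cells with none of the 4 genes. It stood at 187 CPM in cells with 1 UMI, at 825 with 3, at 1226 with 4, and at 4154 with 20 or more. Irf7, the transcription factor that amplifies type I interferon production, went from 78.1 CPM at 0 UMIs to 476 at 3, 583 at 4, and 1350 at 20 or more. Usp18, which removes Isg15 from proteins and dampens the interferon receptor, did not climb steadily, with 92.1 CPM at 3 UMIs and 34.8 at 4, the latter over 20 cells. Ifi27l2a, an interferon-induced gene, stood at 500 CPM at 3 UMIs, 548 at 4, 305 at 5, and 441 at 20 or more. The granzyme Gzma showed no steady trend, with 33693 CPM at 0 UMIs, 26386 at 2, 39247 at 4, and 20516 at 6 to 9. It stood at 29878 at 10 to 19 and at 36296 at 20 or more, the last over 7 cells.

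**Figure D2:**
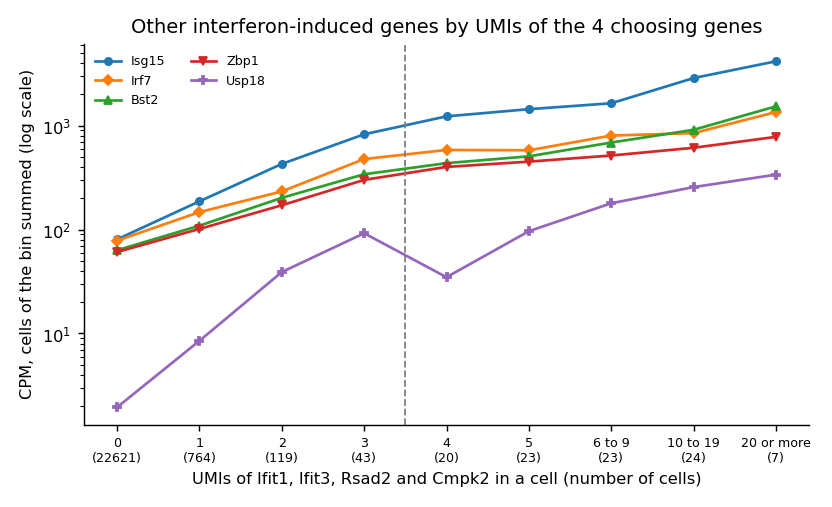
Level of 5 interferon-induced genes that were not used to choose cells (y axis, CPM over the summed cells of a bin, log scale) against the UMIs of Ifit1, Ifit3, Rsad2, and Cmpk2 in a cell (x axis, with the number of cells in each bin). The dashed line marks the threshold of 4 UMIs, and Isg15 runs from 80.4 CPM at 0 UMIs to 4154 CPM at 20 or more.

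The pairs of genes on which the choice rested were also used separately, as a description of the rule without a test. At least 3 UMIs of Ifit1 and Ifit3 chose 96 cells, at least 2 UMIs of Rsad2 and Cmpk2 also chose 96, and 44 cells were in both sets (45.8% of each). In the cells chosen by Ifit1 and Ifit3, Rsad2 and Cmpk2 together stood at 449 CPM, against 3.64 CPM in the rest. In the cells chosen by Rsad2 and Cmpk2, Ifit1 and Ifit3 together stood at 698 CPM, against 7.09 CPM in the rest. The level of Isg15 was 1922 CPM in the first set, 1464 CPM in the second, and 87.5 CPM in the cells outside the 97. Of the first set 83 cells were among the 97, and of the second 58, so the last value is not the level outside either set.

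To find the genes that moved with the choice, UMIs were summed per library over the interferon-response cells and over the other cells, and the 12 sums entered edgeR's quasi-likelihood test with the library as a block. A call required a Benjamini-Hochberg false discovery rate (FDR) under 0.05 together with a change of more than 1.5-fold. Of 11551 genes tested, 202 were called higher (1.75%) and 66 lower (0.571%), and 143 and 59 of them went the same way in all 6 libraries. Because the cells were chosen by 4 of the measured genes, these calls list what varied with those genes from cell to cell. A sum of interferon-response cells rested on 9 to 23 cells. The median log2 fold change over all genes tested was -0.22, to which single values can be compared. Counts of calls within a list below can be set against the 1.75% higher and 0.571% lower over all genes.

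**Figure D3:**
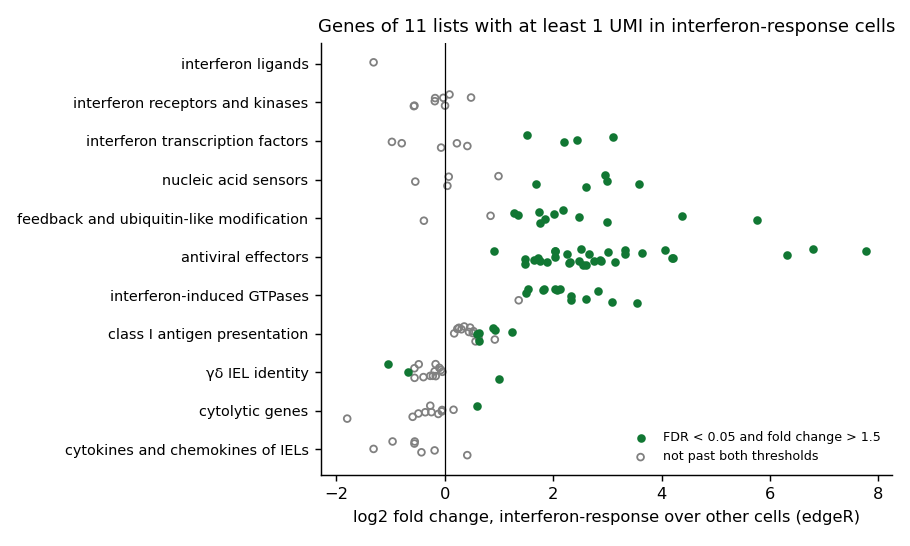
Log2 fold change of interferon-response over other cells (x axis, edgeR) for the tested genes of 11 lists (y axis) that had at least 1 UMI in the interferon-response cells. Filled points passed both thresholds and open points did not, and all filled points of the interferon lists lie to the right of 0.

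Of 104 tested genes in 8 lists of the interferon system, 71 were called higher and none lower, and their median log2 fold change was 1.76, against -0.22 over all genes. By the same test, these 71 were 35.1% of the 202 genes called higher, and 131 higher genes were in none of the lists. A further 19 genes of the lists were measured but fell below the minimum of 5 UMIs in 6 sums, among them 9 interferon ligands. Under 19 other settings, between 63 and 76 genes of the lists were called higher and none was called lower. Per cell, the 97 cells expressed 25 to 78 of the 123 genes of these lists (median 54), and the other cells 5 to 68 (median 28). In each library, between 0.196 and 1.22% of the other cells reached the median of that library's interferon-response cells. These were 7 cells in the WT jejunum and 48 in the Btnl2-KO duodenum, where the interferon-response cells themselves numbered 13 and 12. High counts of expressed genes of these lists were thus not confined to the 97 cells. The counts used all UMIs of a cell, and the part of depth or doublets in them was not tested.

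Transcripts of the type I and type III interferon genes that were looked up were not detected in either class. These were 9 genes, and none had a UMI in any of the 23644 cells. Ifng, the type II interferon that activated T cells secrete, had 5 UMIs in the interferon-response cells and 2836 in the others and was detected in 5.15 and 9.26% of them. Its log2 fold change was -1.31 (SE 0.60, edgeR FDR 0.357), which did not pass the test. Among 8 tested receptors and kinases, none was called, with a median log2 fold change of -0.10. Their values ran from -0.57 for Ifnar1, a chain of the type I receptor (edgeR FDR 0.583), to 0.48 for the kinase Jak2 (edgeR FDR 0.502).

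Transcription factors of the pathway divided into 4 that rose and 5 that did not pass the test. In the order duodenum WT, duodenum Btnl2-KO, jejunum WT, jejunum Btnl2-KO, ileum WT, and ileum Btnl2-KO, Irf7 stood at 671, 588, 816, 817, 777, and 733 CPM (scaled to TMM-normalized library sizes, here and below) in the interferon-response cells. The other cells lay between 80.4 and 87.4 CPM, so that every sum of interferon-response cells exceeded every sum of other cells. The log2 fold change of Irf7 was 3.11 (SE 0.11, edgeR FDR 7.69e-167). Stat2 stood at 176, 196, 93.6, 210, 218, and 167 CPM in the interferon-response cells and at 29.4 to 37.0 CPM in the others, without overlap. It rose by 2.45 on the log2 scale (SE 0.20, edgeR FDR 1.17e-32), and Irf9 by 1.51. Irf1, which responds mainly to interferon-γ, gave 0.22 (edgeR FDR 0.521). Irf3, which is activated by phosphorylation rather than by its transcript level, gave -0.98 (edgeR FDR 0.239).

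Regulators that restrain or extend the signal were higher in 11 of 13 cases tested. Isg15 stood at 2149, 1345, 1498, 2232, 2048, and 2016 CPM in the interferon-response cells in the same library order, and at 80.8 to 95.6 CPM in the other cells. The lowest value of the first class was in the Btnl2-KO duodenum and was still far above every value of the second. Its log2 fold change was 4.37 (SE 0.10), and Isg15 had at least 1 UMI in each of the 97 cells and in 31.9% of the others. No other cell type was sorted, so the share that free RNA gives could not be read from cells that lack the gene. Usp18 rose by 5.75 (SE 0.34, edgeR FDR 5.89e-63), from 2.41 to 3.09 CPM in the other cells to between 33.3 and 232 CPM. Parp14, an ADP-ribosyltransferase, rose by 2.18, and Socs1, an inhibitor of Janus kinases, by 1.28.

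**Figure D4:**
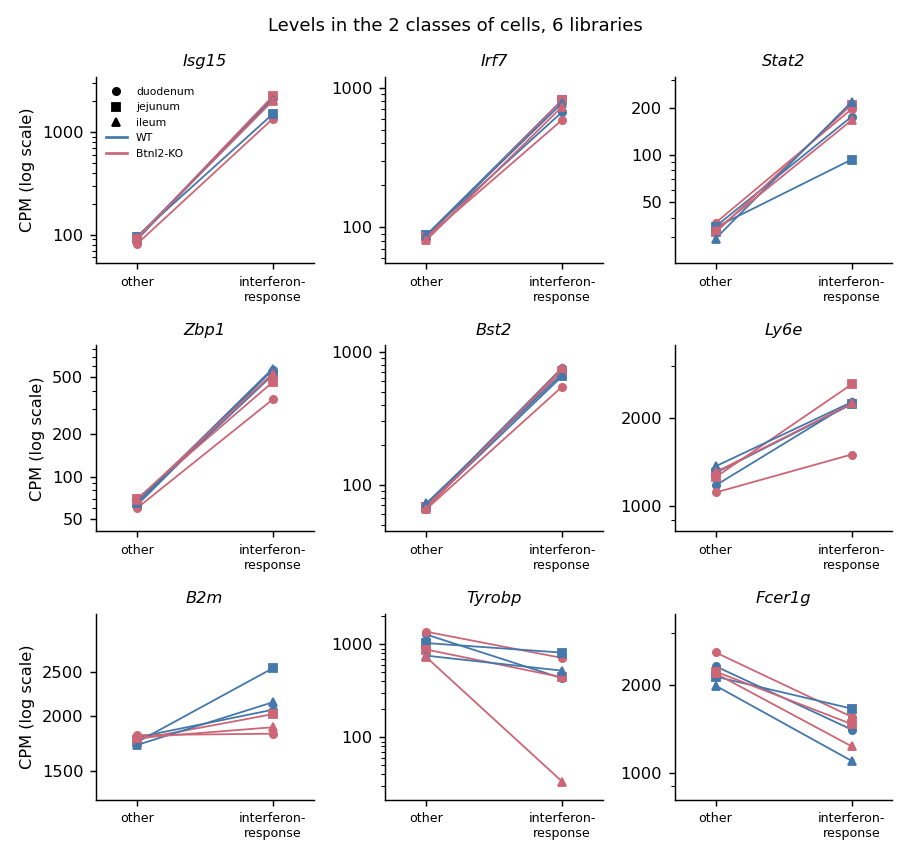
Level (y axis, CPM, log scale, a separate scale for each gene) of 9 genes in the other cells and in the interferon-response cells of each library, joined by a line, with WT in blue, Btnl2-KO in red, and the segments as circles, squares, and triangles. Isg15, Irf7, Stat2, Zbp1, Bst2, and Ly6e rose in 6 of 6 libraries, Tyrobp and Fcer1g were lower in 6 of 6, and B2m did not pass the test.

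Sensors of foreign nucleic acid were called higher in 5 of 9 cases tested. Zbp1, which senses Z-form nucleic acid, stood at 350 to 578 CPM in the interferon-response cells and at 59.8 to 69.4 CPM in the others, a log2 fold change of 2.95 (SE 0.13, edgeR FDR 1.05e-115). The RNA helicases Dhx58 (LGP2), Ifih1 (MDA5), and Ddx58 (RIG-I) rose by 3.58, 2.61, and 1.68. Tmem173 (STING), Mavs, Aim2, and Mb21d1 (cGAS) were not called.

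Antiviral effectors were called higher in 32 of the 32 cases that could be tested, and 7 more in the tables fell below the minimum. Of these 32, 28 were higher in all 6 libraries. Bst2 (tetherin), which holds budding virions at the cell surface, stood at 759, 546, 655, 719, 683, and 750 CPM in the interferon-response cells and at 65.5 to 72.4 CPM in the others (log2 fold change 3.33, SE 0.11, edgeR FDR 2.83e-179). Mx1, a dynamin-like GTPase, had 75 UMIs in 34 of the 97 cells and 63 UMIs in all the other cells together. Its level reached 217 CPM in the jejunal Btnl2-KO library, against 0.307 to 0.655 CPM in the other cells, a log2 fold change of 7.78 (SE 0.42), the largest of all genes called higher. Mx2 rose by 6.80. Rtp4 rose by 3.32, Oas3 by 4.05, and the double-stranded RNA-activated kinase Eif2ak2 (PKR) by 2.55. Oasl2 also passed the test (log2 fold change 6.32) but had UMIs in the interferon-response cells of 4 libraries only. Ifit2 rose by 2.86. The values of Ifit1bl1, Ifit1bl2, Ifit3b, the Gbp and Tgtp genes, and other close copies depend on how the upstream counting divided shared reads.

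Interferon-induced GTPases, which act on vacuoles that hold pathogens, were called higher in 13 of 14 cases tested. Gbp6 stood at 167 to 388 CPM against 31.4 to 40.8 CPM (log2 fold change 3.08, SE 0.16), and Igtp at 250 to 383 CPM against 44.6 to 55.4 CPM (2.61, SE 0.16). Ifi47, already abundant in the other cells at 219 to 254 CPM, rose to between 518 and 854 CPM. Iigp1 was called from 7 UMIs (log2 fold change 3.54), and without the jejunal Btnl2-KO library its edgeR FDR was 0.271. Gbp5 gave 1.36 (edgeR FDR 0.0987).

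Class I antigen presentation moved less, with 6 of 18 genes called higher. The peptide transporter Tap1 rose by 1.24 (SE 0.16, edgeR FDR 5.95e-13), from 90.4 to 101 CPM in the other cells to between 168 and 270 CPM. The non-classical class I gene H2-T23 rose by 0.93 and the immunoproteasome subunit Psmb8 by 0.59. Psmb8 passed the fold change narrowly, and without the WT duodenum, Btnl2-KO jejunum, or WT ileum library it fell below 1.5-fold (log2 values of 0.57, 0.56, and 0.57). The most abundant members were not called. B2m, the light chain of class I molecules, stood at 1821 to 2554 CPM against 1717 to 1808 CPM (log2 fold change 0.23, edgeR FDR 0.248), and H2-K1 gave 0.17 (edgeR FDR 0.482).

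Outside these lists, the largest increase was that of Cxcl10, a chemokine that attracts T cells through CXCR3. It had 139 UMIs in 26 of the 97 cells and 342 UMIs in the others, a log2 fold change of 6.03 (SE 0.35, edgeR FDR 2.77e-62). Its level was uneven, at 647, 140, 66.9, 210, 133, and 16.7 CPM, and a single cell held 36 of the UMIs. Ly6a (Sca-1) rose by 3.13 and Ly6e by 0.79 (1499 to 2592 CPM against 1114 to 1367 CPM). The genes named next were picked after their values were seen. Ms4a4b and Ms4a6b, membrane proteins of lymphocytes, rose by 3.06 and 2.03, Cd274 (PD-L1) by 1.84, and Ltb by 0.87.

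Several markers of γδ IELs were detected in most of the 97 cells, and others in a minority. Ccl5 was detected in 97.9% of them and 97.0% of the other cells, Itgae (CD103) in 94.8 and 96.1%, Cd8a in 85.6 and 88.7%, Gzma in 77.3 and 79.1%, Cd160 in 77.3 and 77.3%, and Gzmb in 72.2 and 75.6%. Fcer1g was detected in 68.0 and 79.7%, Klrd1 in 73.2 and 82.0%, and Tyrobp in 37.1 and 48.3%. The identity list together took 5.15 against 5.74% of the UMIs, lower in 5 of 6 libraries (adjusted exact permutation p = 0.273). T cell receptor genes are not analysed here, so γδ identity was not checked by receptor transcripts. Of 16 tested genes of γδ IEL identity, 1 was called higher and 2 lower, where 1.75% of all genes were called higher and 0.571% lower. Cd69, a retention and activation marker that interferon also induces, rose by 1.01 (210 to 519 CPM against 139 to 184 CPM, edgeR FDR 1.7e-11). Tyrobp (DAP12), an adaptor of activating receptors, stood at 431, 714, 816, 442, 521, and 33.3 CPM in the interferon-response cells and at 1279, 1370, 1034, 881, 757, and 730 CPM in the others. It was lower in 6 of 6 libraries, by 1.04 on the log2 scale (SE 0.12, edgeR FDR 4.25e-17), whereas DESeq2 gave an FDR of 0.41 at a log2 fold change of -1.10. Fcer1g, a related adaptor, was lower in 6 of 6 libraries (1100 to 1658 CPM against 1985 to 2577 CPM, log2 fold change -0.68, edgeR FDR 1.03e-09) and lost the 1.5-fold call with RLE size factors and with DESeq2 (-0.52 in each). Cd7 (-0.56, edgeR FDR 1.33e-07) and Cd8a (-0.39, edgeR FDR 0.00399) did not pass the fold change. Both were called lower with at least 6 UMIs of the 4 genes (-0.88 and -0.60) and with thinned cells (-1.05 and -0.90), and Cd7 also without the WT ileum (-0.60). The median over all genes tested was -0.41 with at least 6 UMIs and -0.66 with thinned cells.

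Of 11 cytolytic genes, 1 was called, where 1.75% of all genes were called higher and 0.571% lower. Gzma, the most abundant granzyme, stood at 20411 to 35503 CPM against 31969 to 37088 CPM (log2 fold change -0.25, edgeR FDR 0.149). It was called lower with at least 6 UMIs of the 4 genes (-0.59, edgeR FDR 4.45e-07) and with thinned cells (-0.99, edgeR FDR 6.49e-07). In those fits the median over all genes tested was itself lower, at -0.41 and -0.66. Gzmk was called higher at 0.59, just past the threshold, but did not pass both thresholds without the WT duodenum (edgeR FDR 0.0159 at 0.58) or Btnl2-KO ileum library (edgeR FDR 0.0703 at 0.45). None of 8 tested cytokines and chemokines of IELs was called. In the list of naive or circulating T cell genes, Klf2 and Ccr7 were called higher, but their 29 and 5 UMIs lay in 3 cells each. Without the WT duodenum library the edgeR FDR of Klf2 was 0.238. Ccr7 lost its call without any 1 library other than the WT ileum (edgeR FDR 0.0584 to 0.757).

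Fewer genes were lower, and their number varied more with the scaling. Of the 66, 28 had under 20 UMIs in the interferon-response cells, and 3 had none. With RLE size factors, which moved the median of all genes by 0.15 on the log2 scale, 22 genes were called lower and 234 higher, so that 91.4% of the calls were higher, against 75.4% with TMM. DESeq2 called 1 gene lower, Stmn1, a regulator of microtubules that dividing cells express, and 188 higher. In the edgeR fit, Stmn1 had 1 UMI in the interferon-response cells and 3341 in the others (log2 fold change -3.95, edgeR FDR 0.000643). Without cells over 2 times the median UMIs it was not called (-1.81, edgeR FDR 0.635), nor with cells chosen by Rsad2 and Cmpk2 (-1.47, edgeR FDR 0.173). Tubb5, a tubulin, was lower by 0.73 (SE 0.15, edgeR FDR 0.000104), with 93.6 to 240 CPM against 261 to 310 CPM, and was not called with RLE size factors (-0.58) or DESeq2 (FDR 0.0809). Of 16 cell cycle genes tested, these 2 were called lower, against 0.571% of all genes, and 5 had no UMI in the 97 cells. Those 5 were rare in the other cells too, detected in 0.582 to 1.16% of them. The highest log2 fold change of the list was 0.37, for Mcm6, which was not called. The genes at 0 that were called lower were Defa24, an α-defensin of Paneth cells, 2810417H13Rik, and Fbxo32. Against a floor of 3 UMIs over the 97 cells, their levels were at least 3.24-fold, 3.13-fold, and 2.38-fold lower. None of the 3 was called by DESeq2. Fbxo32 lost its call without any 1 of the 6 libraries (edgeR FDR 0.0612 to 0.136), Defa24 without the Btnl2-KO jejunum (0.309) or at most 10% mitochondrial UMIs (0.0867), and 2810417H13Rik without cells over 2 times the median UMIs (0.621). The early response gene Ier2 (-0.61), the heat shock gene Hspa1a (-2.47, from 4 UMIs), Cd38 (-0.66), and Epcam (-0.88) were also called lower. None of these 4 was called by DESeq2. Hspa1a lost its call without the WT duodenum (edgeR FDR 0.139), and Epcam without the WT library of the duodenum, jejunum, or ileum (edgeR FDR 0.129, 0.129, and 0.0718). Ier2 fell below 1.5-fold without the WT jejunum or the Btnl2-KO ileum (-0.53 and -0.57). Cd38 lost its call without any 1 library other than the Btnl2-KO ileum (edgeR FDR 0.0506 to 0.202).

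Measures of whole cells were compared with exact sign-flip permutation tests over the 6 libraries, two-sided, in which the smallest p possible is 0.03125. The interferon-response cells held more UMIs in 6 of 6 libraries, with a mean of the library medians of 5378 against 5067 (exact permutation p = 0.03125, adjusted over 21 measures p = 0.109). A cell with more UMIs reaches the rule's minimum more easily, so the choice itself favoured this direction. The median gene number of the interferon-response cells was 2125 against 2028, and at the thinned depth 1484 against 1497. Mitochondrial UMIs were 3.41 and 3.45%, lower in 4 of 6 libraries. Cell cycle genes took 0.0396 against 0.0587% of the UMIs and immediate-early genes 0.220 against 0.256%, both lower in 6 of 6 libraries, and activation and inhibitory receptors took 0.332 against 0.227%, higher in 6 of 6. In this last list Ly6e alone had 1273 UMIs in the 97 cells, Cd38 was called lower, and the median log2 fold change over its 13 tested genes was -0.025. The share of cells with at least 2 cell cycle UMIs was 52.9 against 64.5%, lower in 4 of 6 libraries (adjusted exact permutation p = 0.273). All of the measures that went 1 way in 6 libraries had an adjusted p of 0.109 by the same exact permutation test, so none passed the correction. As for doublets, for which no caller was run, 3.09% of the interferon-response cells and 3.84% of the others had more than 2 times the median UMIs of their library. Of the barcodes, 19 to 31 were shared by any pair of libraries, and 2 of the 97 cells had a barcode that also occurred in another library.

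Markers of other cell types were counted in the 97 cells. Of 5 B cell markers, 4 had no UMI, as had 4 of 5 plasma cell, 5 of 8 myeloid, 2 of 3 plasmacytoid dendritic cell, 2 of 3 αβ T cell, and 2 of 4 NK cell and ILC markers. The lists' UMIs came mainly from genes that the other γδ IELs also expressed, such as Xbp1 (27.8% of the 97 cells, 31.2% of the others), Cst3 (54.6 and 59.7%), and Itgax (23.7 and 30.6%). Tcf4 was detected in 17.5% of the interferon-response cells and 7.96% of the others, and Siglech and Spib in none of the 97. All 12 epithelial markers had UMIs, 102 in the interferon-response cells and 26502 in the others. One cell stood apart. In the Btnl2-KO duodenum, a cell with 10915 UMIs, 27.4% of them mitochondrial, held 149 of the 151 UMIs of 8 epithelial genes in that library's interferon-response cells, among them every UMI of Guca2b and Apoa1. These genes, named after their values were seen, passed the test of higher levels (Guca2b 4.37, Apoa1 2.86) through that cell alone. Removing cells above 10% mitochondrial UMIs removed it. In this fit 194 genes were called higher and 64 lower, of which 189 and 61 were among the calls above.

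Whether interferon-response cells differed from other cells by another amount in Btnl2-KO than in WT mice was tested as an interaction in edgeR. LacZ, the marker of the targeted allele, had 11 to 21 UMIs per Btnl2-KO library and none in WT, and Btnl2 had 0 or 1 UMI against 6 to 27. Of the 104 interferon genes, none was called and none had an unadjusted p below 0.05, whereas 2.82% of all genes tested did. Over all genes, 5 were called higher in Btnl2-KO (0.0433%) and none lower, and leaving out the Btnl2-KO duodenum left no call, whereas leaving out the Btnl2-KO jejunum gave 11 higher and 1 lower. Apoa1 and Rbp2 were the genes of the epithelial-rich cell. Rn45s and Rnr1, ribosomal RNAs, stood in the Btnl2-KO duodenum at 101955 and 5281 CPM in the interferon-response cells, and the same cell held 41.9 and 61.3% of those UMIs. Without that cell, the interferon-response cells of this library still stood at 70765 and 2442 CPM (raw UMIs). The comparison cells of this library stood at 36346 and 1536 CPM. Xcl1 (lymphotactin) had 59 of its 73 UMIs in the interferon-response cells of this library in 1 cell, which was a different one. The comparison sets 3 segment libraries of 1 pool of mice against 3 of another.

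Bulk libraries offered levels of the same genes in cells the rule had not touched. In these libraries, fewer interferon-response cells and less interferon-induced RNA per cell cannot be told apart. Ifit1 stood at 12.3 ± 3.04 CPM (SD, n = 4) in the WT and 14.2 ± 2.51 CPM (SD, n = 3) in the Btnl2-KO duodenum. The jejunum had 15.8 ± 2.68 CPM (SD, n = 4) in WT and 18.9 ± 3.70 CPM (SD, n = 4) in Btnl2-KO libraries, and the ileum 9.36 ± 1.35 CPM (SD, n = 4) and 10.2 ± 2.06 CPM (SD, n = 3). Isg15 stood at 36.8 ± 9.08 and 28.3 ± 4.69 CPM in the duodenum, 23.2 ± 2.05 and 30.7 ± 10.1 CPM in the jejunum, and 27.1 ± 4.62 and 33.0 ± 17.9 CPM in the ileum (SD, n as for Ifit1). The ranges of WT and Btnl2-KO libraries overlapped for both genes in each segment.

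**Figure D5:**
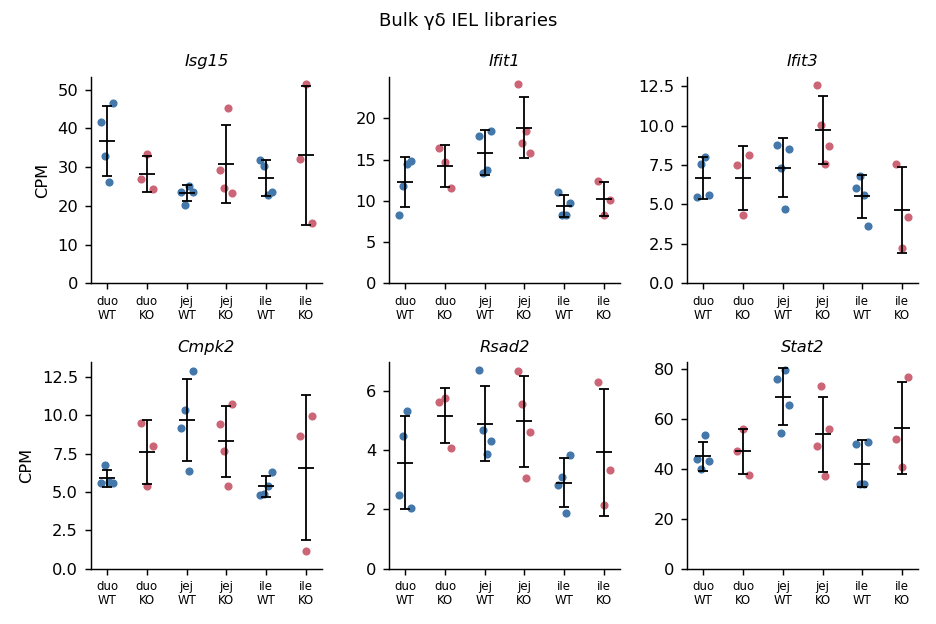
Level (y axis, CPM) of 6 interferon-induced genes in the bulk γδ IEL libraries of the duodenum, jejunum, and ileum (x axis), with 1 point per library, WT in blue, Btnl2-KO in red, and the mean ± SD in black. Isg15 lies between 15.6 and 51.4 CPM over all libraries, and Ifit1 between 8.22 and 24.2 CPM.

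Between genotypes, edgeR called no interferon gene in any segment, and DESeq2 called 2. With edgeR, 0 of 117 genes of the rule and the 8 lists were called in the duodenum (all genes: 0% higher, 0.00789% lower), 0 of 118 in the jejunum (0% higher, 0.00794% lower), and 0 of 119 in the ileum (0% in either direction). The single gene called in the duodenum and in the jejunum was Btnl2 itself. At an unadjusted edgeR p below 0.05, there were 5 of 117, 9 of 118, and 9 of 119 interferon genes. Over all genes tested, there were 263 of 12680, 805 of 12594, and 1108 of 12604. The lowest edgeR FDR of the interferon genes was 0.997, 0.583, and 0.432. DESeq2 called 2 interferon genes lower in the Btnl2-KO ileum, Ifitm3 (log2 fold change -1.27, FDR 0.0233) and Oas1g (-1.90, FDR 0.0331), among 219 lower genes in all. Ifitm3, which blocks virus entry, stood at 33.7, 72.7, 58.0, and 33.4 CPM in WT and at 22.7, 22.7, and 15.8 CPM in Btnl2-KO libraries, without overlap. In the same libraries the summed level of 12 epithelial markers was 3374 to 8757 CPM in WT and 1024 to 3536 CPM in Btnl2-KO, and its part in the result was not tested. In single cells, Ifitm3 had 10 UMIs in the interferon-response cells and 146 in the others.

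WT segments were compared in the same way. In jejunum over duodenum, 23 of 117 were called higher and 7 lower by edgeR, where 10.5% of all genes were called higher and 12.7% lower. The higher genes included Stat2, Ddx58, Ifit2, Cmpk2, and 6 GTPases such as Gbp6 (log2 fold change 0.66, SE 0.12, edgeR FDR 0.00461). Cmpk2 stood at 9.16, 10.3, 6.39, and 12.8 CPM in the jejunum and at 5.59, 6.74, 5.64, and 5.58 CPM in the duodenum (0.70, SE 0.23, edgeR FDR 0.037). The lower genes included Isg15 (-0.68, SE 0.18, edgeR FDR 0.0163), Bst2 (-0.72, SE 0.21, edgeR FDR 0.0209), and 4 genes of class I presentation. Stat2 and Isg15, both higher in the interferon-response cells, thus went in opposite directions between these segments. The count of lower genes was 12, 13, and 4 without replicate 2, 3, or 4 of the WT duodenum and 11 without replicate 1 of the WT jejunum. In ileum over duodenum, 1 of 116 was called higher, Socs3 (1.79, SE 0.32, edgeR FDR 0.012), and none lower, at 1.15 and 1.01% of all genes. In ileum over jejunum, 2 of 119 were called higher (Ifng and Psme2) and 23 lower, at 10.8 and 10.9% of all genes. Ifit1 was among the lower genes (-0.74, SE 0.18, edgeR FDR 0.0121), with 8.24 to 11.1 CPM in the ileum and 13.4 to 18.5 CPM in the jejunum. The summed level of the 12 epithelial markers was 3857 to 7356 CPM in the WT duodenum and 2089 to 5731 CPM in the WT jejunum, and its part in these differences was not tested.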

How the data were processed

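Sorted γδ IELs were profiled by 10x 5′ single-cell RNA-sequencing (6 libraries) and bulk RNA-sequencing (22 libraries). For single cells, the authors used Cell Ranger with mm10 and a RefSeq gene model. The deposited values are raw UMI counts. For bulk, the authors aligned to a customized mouse genome in ArrayStudio (the labels name GRCm38), and the deposited values are RSEM expected counts of sense-strand exon reads. These were rounded here (5.00% were not whole). How RSEM and Cell Ranger divide reads limits the values of near-identical genes. Of 24475 bulk identifiers, 100 had no symbol. The bulk table held 1 further column of per-sample values, which was not used.

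The cells compared held 18853185 to 27541700 UMIs per library, and bulk libraries 13444958 to 30029485 counts. All 30 pairs of bulk replicates differed by more than sampling noise (chi-square per degree of freedom at least 14.9).

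No mitochondrial filter was applied, although the study removed cells above 10%. UMIs summed per library and class were tested with edgeR 4.0.16 in R 4.3.3 (glmQLFit, glmQLFTest, TMM, at least 5 UMIs in at least 6 sums, library as block). Bulk groups were compared pairwise by the same test, with a minimum of 10 counts in a number of libraries equal to the size of the smaller group. The call thresholds are those of the study. The SE is the absolute log2 fold change divided by the square root of F. Signs within a library are of log2(CPM + 10). P-values measure the spread between these libraries only, and libraries share mice. Alternatives were DESeq2 1.42.0, RLE size factors, other filters and UMI minimums, other selections of cells, thinning, no block, and leaving out each library. The fits were tested on simulated data. Python 3.11.15 with scipy 1.17.1 was used for the cells and permutation tests. Promoter windows were matched by symbol for 162 of 202 higher, 55 of 66 lower, and 9233 of 11551 tested genes. T cell receptor genes, V gamma shares included, are not analysed here, and 1 gene is not reported here.

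The cells, lists, and tests were chosen with earlier results of these data known. Genes that could be named were the 4 of the rule, list members, and the 10 largest changes either way among calls of 1 sign in 6 libraries. Any other gene was picked for its values, which is stated where it appears.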

Additional observations from a re-analysis of the deposited data

Results flagged for a closer look

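A sample far from the rest of its group was found in 5 of 42 groups tested, where chance gives about 1 in 20. Cmpk2 stood at 6.74 CPM in replicate 2 of the WT duodenum bulk libraries, against 5.58 to 5.64 CPM in the other 3. The other 4 values are differences between interferon-response and other cells of 1 single-cell library, in percentage points of UMIs. In the Btnl2-KO duodenum, immediate-early genes differed by -0.138 and epithelial markers by 0.0387, the latter being the library of the cell rich in epithelial transcripts. In the WT duodenum, αβ T cell markers differed by 0.000486, and in the Btnl2-KO ileum, NK cell and ILC markers by 0.00171.

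The difference between interferon-response and other cells was larger in Btnl2-KO than in WT libraries for 5 genes by the interaction test in edgeR. The log2 difference was 15.7 for Apoa1 (FDR 3.24e-14) and 13.7 for Rbp2 (FDR 0.00223), neither of which had a UMI in the WT interferon-response cells, so that these values depend on the prior count and are no measure of size. It was 0.98 for Rn45s (FDR 0.00403), 0.94 for Rnr1 (FDR 0.0155), and 1.59 for Xcl1 (FDR 0.00403). The UMIs of these genes in the interferon-response cells of the Btnl2-KO duodenum lay largely in 1 cell (Apoa1 and Rbp2 53 of 53 and 33 of 34, Rnr1 231 of 377, Xcl1 59 of 73) or to 41.9% in 1 cell (Rn45s).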

How the results depend on the processing

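The 202 genes called higher became 130 with thinned cells and stayed within 1.5 times otherwise (175 to 196 when a library was left out). The 66 genes called lower became 1 with DESeq2, 22 with RLE size factors, 102 without a minimum on the fold change, 114 with at least 6 UMIs, 43 with cells chosen by Ifit1 and Ifit3, 39 with cells chosen by Rsad2 and Cmpk2, and 217 with thinned cells (53 to 61 when a library was left out). Without the block by library, 176 were called higher and 56 lower. Of the calls, 37.5% were higher with thinned cells and 59.6% with at least 6 UMIs. The median log2 fold change over all genes tested was -0.66 and -0.41 in these fits, against -0.22 in the main fit. The interaction gave 0 to 11 genes higher and 0 to 1 lower when a library was left out. No paired analysis was possible because the numbers of the bulk libraries were given in accession order and the single-cell groups have 1 library each.

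Shares moved to 0.534% in the Btnl2-KO duodenum with at least 3 UMIs. With at least 6 they were 0.329% in the WT duodenum, 0.167% in the WT and 0.368% in the Btnl2-KO jejunum, and 0.243% in the WT ileum. Thinned, they were 0.149% (Btnl2-KO duodenum), 0.381% (Btnl2-KO jejunum), 0.237% (WT ileum), and 0.0684% (Btnl2-KO ileum) with at least 4 UMIs, and 0.988% (WT duodenum), 0.715% (Btnl2-KO duodenum), and 1.03% (Btnl2-KO jejunum) with at least 2.

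Of 1359 pairs of a named gene and a setting, 1187 kept their direction and side of the threshold, 146 lost the call, 13 gained it, and 13 reversed. Apoa1 reversed to -0.56 with DESeq2, -9.53 with at least 6 UMIs, -9.57 with Ifit1 and Ifit3, -8.15 thinned, -8.43 at most 10% mitochondrial, and -8.30 without cells over 2 times the median UMIs (-9.66 to 3.78 when a library was left out). With thinned cells B2m gave -0.16, H2-K1 -0.16, Gzmk -0.21, and Klf2 -8.60. The median over all genes in that fit was -0.66, against -0.22 in the main fit, and B2m, H2-K1, and Gzmk lay above it. With Rsad2 and Cmpk2, Gzmk gave -0.031 and Fbxo32 0.036. The cause was not tested. For median genes the thinned selection gave -24.9 and for mitochondrial percent 0.00749. When a library was left out, differences ran from -0.107 to 0.00151 for mitochondrial percent, -0.345 to 0.166 for cytolytic genes, -0.0108 to 0.00113 for heat shock genes, -0.00878 to 0.00173 for epithelial, -0.00162 to 0.000164 for B cell, and -0.00480 to 2.26e-05 for myeloid markers.

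In bulk, DESeq2 called 2 interferon genes lower in the Btnl2-KO ileum. For WT jejunum over duodenum, 40 were higher and 14 lower without a minimum on the fold change, 4 lower in a fit of all 22 libraries, and 18 to 32 higher and 4 to 13 lower when a library was left out. For ileum over duodenum, DESeq2 called 3 higher, and 0 to 1 were lower when a library was left out. For ileum over jejunum, 7 were higher and 42 lower without a minimum on the fold change, and 5 higher with DESeq2, 4 with RLE size factors, 0 in the fit of all 22 libraries, and 1 to 4 when a library was left out.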
